A study of Homo sapiens with 4 samples.

Results

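Among genes with a CPM of 5 or more in the second untreated library, excluding symbols beginning with HIST, the 200 genes with the highest value there relative to the remaining libraries were examined. They were chosen by a ranking ratio, the CPM in untreated replicate 2 divided by the highest CPM among the other 3 libraries plus 0.1, out of 10587 eligible genes and 59050 genes listed. CPM is the count of a gene divided by the total count of its library, times 1000000. Since all 4 libraries entered the ratio, the high values in untreated replicate 2 and the low values elsewhere are the selection itself, and they are given as a description with no test.

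The libraries came from human cells labelled HepG2, a cell line established from a liver tumor, cultured in DMEM with serum. There were 2 libraries of untreated cells (0 h) and 2 of cells given doxorubicin, a drug that damages DNA and activates p53, at 1 ug/ml for 24 h, and poly(A) RNA was selected from total RNA for all of them. The replicates were called biological in the study, and nothing says how the cultures were separated, so p-values measure only the spread between these samples. The identity of the cells went against the label, because the summed CPM of 14 liver markers was 1.32 and 5.58 in the untreated libraries and 17.0 and 20.1 in the doxorubicin libraries. ALB, the gene of serum albumin, had between 0 and 3 counts in every library. Library totals ran from 27572740 to 36272180 counts. Untreated replicate 2 stood apart from the other 3 libraries in the number of genes with at least 1 count, which was 31258 there and between 25734 and 27609 in the others.

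The members mix several kinds of genes. Immediate early genes such as FOSB are short genes that cells switch on within minutes of a growth factor or stress signal, without making new protein first, and their products include transcription factors and secreted growth regulators. Developmental transcription factors of the homeobox, forkhead and SOX families set cell identity in the embryo and are silent in most adult tissues. Divergent and antisense transcripts are noncoding RNAs that start at or inside the gene of a protein on the opposite strand, and many of them are short-lived.

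The 200 genes held 0.607% of all counts in untreated replicate 2 and 0.0275% in untreated replicate 1, against 0.0331% and 0.0359% in doxorubicin replicates 1 and 2. Their median CPM was 12.6 in untreated replicate 2, with a range from 5.06 to 434, while the medians of the other 3 libraries were 0.400, 0.554 and 0.544. The highest value in those 3 libraries was under 1 CPM for 119 members, under 5 CPM for 182 and at 10 CPM or above for 6. The ranking ratio ran from 91.2 to 8.76 with a median of 14.1. The exact 95% interval of the ratio of counts between untreated replicate 2 and the next highest library lay above 5 for all 200 members, with a lowest bound of 6.07, and it covers counting error only. It was wide where the next highest library had few counts, as for POU3F1, with bounds of 32.2 and 975. The same counts ranked the members, so these bounds describe the list and are not a test of it. At the end of the list, AL512408.1, AL139384.2 and AC092614.1 were just inside with ratios of 8.82, 8.78 and 8.76, and AC113410.4, LINC01962 and ARIH2OS were just outside with 8.66, 8.65 and 8.65. The rule thus cut a continuous range, since 522 of the 10587 eligible genes had a ratio of 4 or more and 1340 had a ratio of 2 or more, whereas the median eligible gene was at 0.805.

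**Figure D1:**
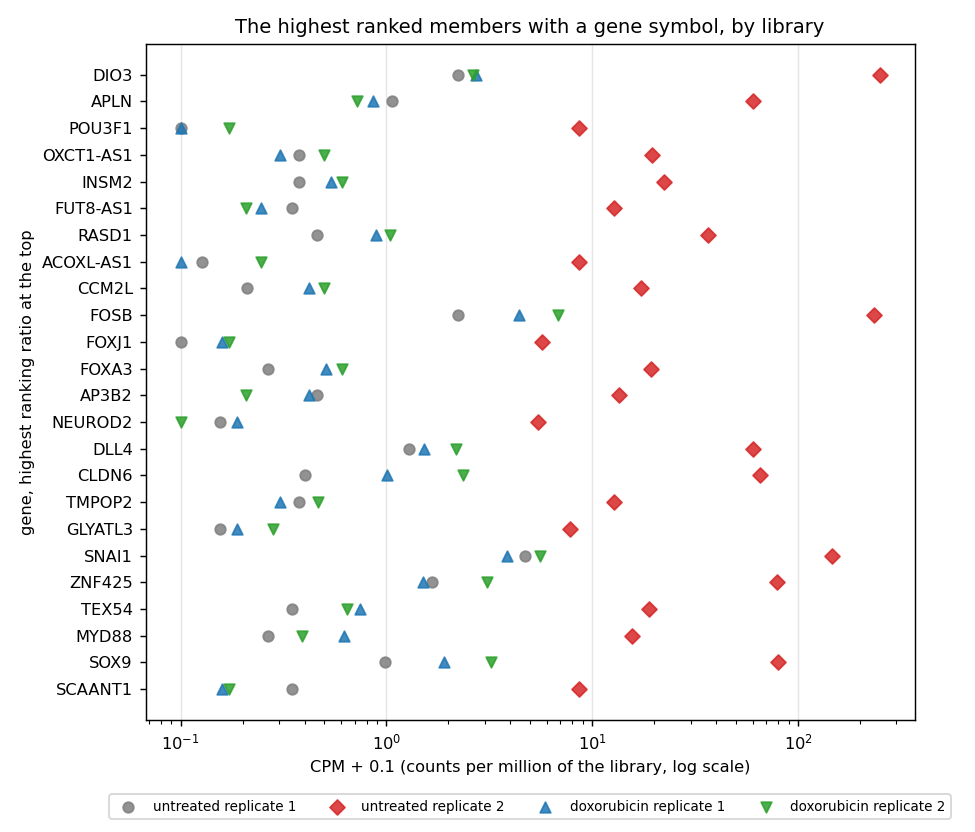
The highest ranked members with a gene symbol are shown on the vertical axis and their CPM plus 0.1 in each of the 4 libraries on a log scale on the horizontal axis. The red diamonds of untreated replicate 2 lie between 5.37 and 248 CPM, and the symbols of the other 3 libraries lie at 6.67 CPM or lower.

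The end of the list with the highest ratios was led by DIO3 (chr14:101560139-101563452, GRCh38, plus strand, a single exon in the annotated transcript), which encodes the deiodinase that inactivates thyroid hormone. DIO3 had 77 and 7171 counts in the untreated libraries and 90 and 70 in the doxorubicin libraries, or 2.12, 248, 2.62 and 2.54 CPM. The next gene with a symbol was APLN, which encodes the signalling peptide apelin, with 0.965 and 60.1 CPM in untreated cells and 0.758 and 0.617 CPM after doxorubicin. POU3F1, a transcription factor of neural and Schwann cells, had 0 and 246 counts in the untreated libraries and 0 and 2 in the doxorubicin libraries. In each of these 3 genes the library that differed was untreated replicate 2, and untreated replicate 1 lay with the doxorubicin libraries.

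RefSeq promoters (GRCh38.p14, 250 bases before the start to 50 after it) are printed for 4 members that stand for the groups described here, DIO3 for the highest ratio, FOSB and CCN2 for the immediate early genes, and DINOL for the noncoding RNAs beside a coding gene. Capitals mark every match to 5 motifs on either strand, and adjoining or overlapping matches run together. The TATA box was searched for as TATAAA. The GC box was searched for with the letters GGGCGG, and the CCAAT box by the letters of its name. The cyclic AMP response element was TGACGTCA. The AP-1 site was searched for in the form TGANTCA, where N is any base. DIO3 is read at chr14:101561245-101561544 on the plus strand, FOSB at chr19:45467746-45468045 on the plus strand, CCN2 at chr6:131951323-131951622 on the minus strand and DINOL at chr6:36678510-36678809 on the minus strand.
DIO3: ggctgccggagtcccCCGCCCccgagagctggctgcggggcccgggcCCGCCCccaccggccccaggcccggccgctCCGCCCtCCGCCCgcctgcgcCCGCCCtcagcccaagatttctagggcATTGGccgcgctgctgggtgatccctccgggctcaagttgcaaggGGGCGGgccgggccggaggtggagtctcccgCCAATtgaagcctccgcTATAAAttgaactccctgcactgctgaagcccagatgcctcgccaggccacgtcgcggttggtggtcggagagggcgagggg
FOSB: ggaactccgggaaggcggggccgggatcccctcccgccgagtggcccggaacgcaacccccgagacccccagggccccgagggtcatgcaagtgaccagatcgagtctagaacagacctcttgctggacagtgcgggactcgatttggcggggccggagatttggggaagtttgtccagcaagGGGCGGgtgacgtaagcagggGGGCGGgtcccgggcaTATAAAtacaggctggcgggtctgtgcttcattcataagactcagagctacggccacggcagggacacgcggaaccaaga
CCN2: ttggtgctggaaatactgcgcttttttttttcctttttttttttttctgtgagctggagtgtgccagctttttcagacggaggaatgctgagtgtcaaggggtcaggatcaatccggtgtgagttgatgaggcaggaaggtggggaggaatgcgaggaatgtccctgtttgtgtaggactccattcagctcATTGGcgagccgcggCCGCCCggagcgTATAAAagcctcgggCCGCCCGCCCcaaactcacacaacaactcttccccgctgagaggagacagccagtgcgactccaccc
DINOL: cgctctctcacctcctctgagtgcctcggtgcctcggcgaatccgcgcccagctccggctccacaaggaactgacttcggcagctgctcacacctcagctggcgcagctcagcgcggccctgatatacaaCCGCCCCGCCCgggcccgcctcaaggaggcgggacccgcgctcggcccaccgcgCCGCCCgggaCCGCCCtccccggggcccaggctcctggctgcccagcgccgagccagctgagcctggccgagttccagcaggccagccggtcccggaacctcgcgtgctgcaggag

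The DIO3 promoter held 1 TATA box, 6 GC boxes and 2 CCAAT boxes, and its GC content was 73.0%. FOSB had 1 TATA box and 2 GC boxes, and CCN2 had 1 TATA box, 3 GC boxes and 1 CCAAT box. DINOL had 4 GC boxes and none of the other 4 motifs in this window. Among all 27305 RefSeq promoters of the same length, 12.0% held the TATA box, 44.6% the GC box, 35.7% the CCAAT box, 1.98% the cyclic AMP response element and 7.76% the AP-1 site. A match is a description of the letters and not a site of binding. A comparison over the coding members was void, because promoter entries were matched for 52 of the 72 (72.2%), which is under the 80% set for such checks.

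By class, 99 of the 200 members (49.5%) carried a clone name such as AC087741.3, which marks genes named after a sequenced clone, against 3.72% of the other eligible genes. None of these 99 was found in the annotation used here, so their type, length and position are not given. The remaining 101 members all matched, 4 of them by an older symbol. Of these, 72 (71.3%) were protein-coding, 24 (23.8%) were long noncoding RNAs (lncRNAs) and 5 were pseudogenes, whereas 95.3% of the other eligible genes with an annotated symbol were protein-coding and 2.77% were lncRNAs. The pattern reached beyond the 200 genes. Over all eligible genes the median log2 ranking ratio was 1.63 for clone-named genes, 0.69 for lncRNAs, 0.11 for pseudogenes and -0.39 for protein-coding genes, and untreated replicate 2 was the highest library in 4106 of the 10587. The 101 annotated members came from 21 chromosomes, and chromosome 17 held 18 of them (17.8%) against 6.67% of the eligible genes with an annotated symbol.

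**Figure D2:**
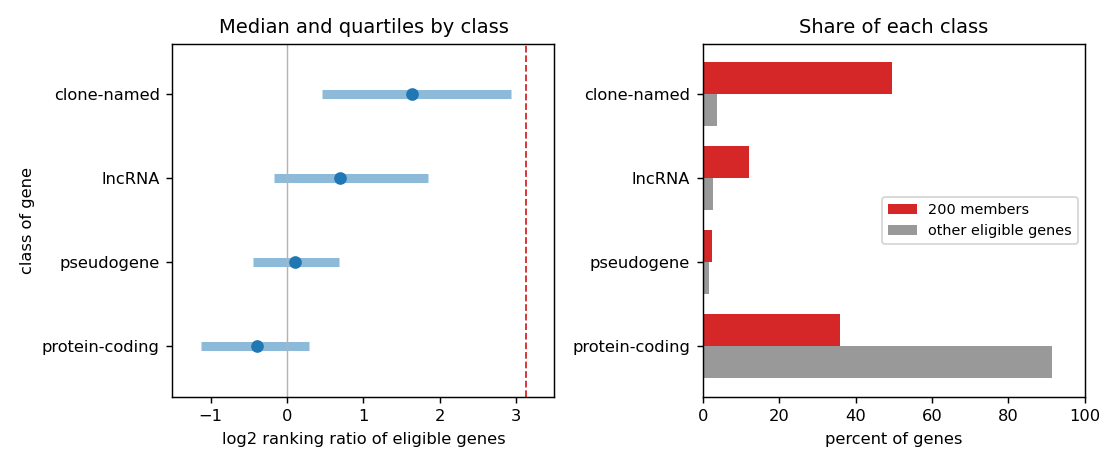
The left panel gives the median (point) and quartiles (bar) of the log2 ranking ratio of eligible genes by class, with the lowest ratio on the list as a dashed line. The right panel gives the percent of the 200 members and of the other eligible genes in each class, where clone-named genes make up 49.5% and 3.72% and protein-coding genes 36% and 91.3%.

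The protein-coding members were compact genes. Their median span on the genome was 7593.5 bases against 30927 bases for the other eligible coding genes, and 44 of the 72 (61.1%) spanned less than 10 kb against 19.1%. Their median number of exons was 4 against 9. A single exon was annotated for 7 of the 72 (9.72%) against 1.89%, and at most 2 exons for 23 (31.9%) against 6.53%. Their transcripts were less different in length, with a median of 2599.5 bases against 3336. The median GC content of the transcripts was 60.1% against 48.5%. The shortest spans among annotated members were those of the lncRNA SCAANT1 (255 bases), the pseudogene RPLP1P6 (520 bases) and the sperm gene TEX54 (521 bases). The longest were those of WNK3, a kinase of ion transport, with 165820 bases, MARCH10 with 107031 bases and RSRP1 with 95965 bases.

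The same order was present among all eligible coding genes, members or not. The median ranking ratio was 1.40 for genes spanning up to 5 kb, 0.945 for 10 to 30 kb and 0.348 for more than 100 kb. By exon number it was 1.66 for single-exon genes and 0.563 for genes with more than 10 exons. Members made up 2.63% of the coding genes of up to 5 kb and 0.127% of those over 100 kb, and 2.34% of those with a GC content above 60% against 0 of 1613 genes with a GC content of up to 40%. Span, exon number, transcript length and GC content are related to each other across genes, and their separate parts were not tested.

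**Figure D3:**
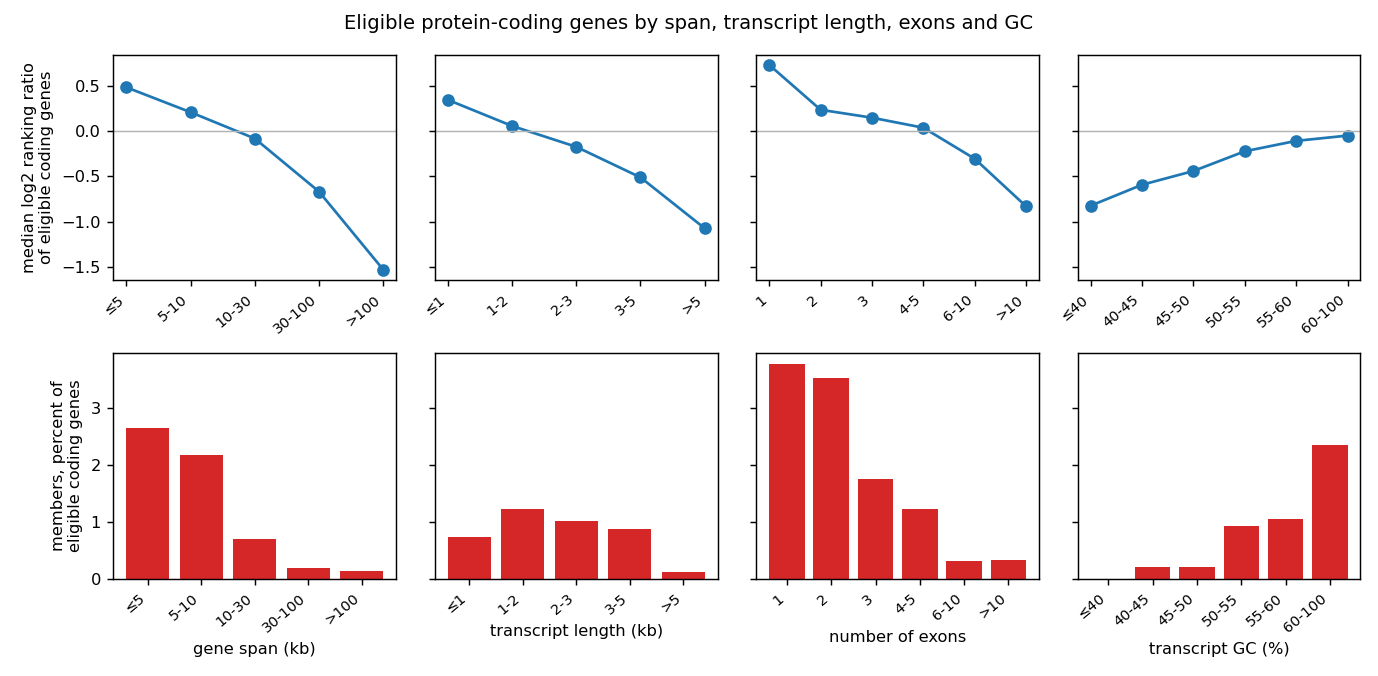
Eligible protein-coding genes are binned by gene span, transcript length, number of exons and transcript GC content on the horizontal axes. The upper panels give the median log2 ranking ratio in each bin, which goes from 0.48 to -1.52 with increasing span, and the lower panels give the members as a percent of the coding genes in the bin.

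Transcription factors were 18 of the coding members, the largest of the functional groups used here. The functional groups were drawn up after the list was seen, to order the description. They hold members only, and their shares among all eligible genes were not computed, so nothing is read from their sizes. The median CPM of the 18 genes was 34.9 in untreated replicate 2 and 1.49, 1.81 and 2.34 in untreated replicate 1, doxorubicin replicate 1 and doxorubicin replicate 2, and values for single genes follow this order of the other 3 libraries. FOSB, a subunit of the AP-1 factor, had 232 CPM in untreated replicate 2 and 2.12, 4.31 and 6.67 CPM in the others. SNAI1, the Snail repressor of E-cadherin, had 146 CPM in untreated replicate 2 and 4.60, 3.76 and 5.44 CPM in the others. Their high values rested on 6710 and 4208 counts, and the low values of both genes were above the level of 3 counts in every library.

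SOX9, a factor of cartilage and of epithelial progenitors, had 79.5 CPM in untreated replicate 2 and 0.882, 1.81 and 3.12 CPM elsewhere. ZNF425, a zinc finger protein, had 79.1 CPM and 1.57, 1.40 and 2.97 CPM. INSM2, a zinc finger factor of neuroendocrine cells, had 22.1 CPM and 0.276, 0.437 and 0.508 CPM. These 3 genes were lowest in untreated replicate 1 or doxorubicin replicate 1 and next highest in doxorubicin replicate 2.

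FOXA3, a forkhead factor of liver and gut, had 19.3 CPM in untreated replicate 2 and 0.165, 0.408 and 0.508 CPM in the others. FOXJ1, which directs the formation of motile cilia, had 161 counts in untreated replicate 2 and 0, 2 and 2 counts in the others. The ratio of FOXJ1 therefore rests on few counts, and untreated replicate 1 was at 0. The other 10 factors were NEUROD2, ATOH7, PITX3, GBX2, EN2 and DLX2, which act in the developing nervous system and eye, MAFA, which activates the insulin gene, and MYCL, SOX15 and SP6. They ranged from 5.37 CPM (NEUROD2) to 55.5 CPM (GBX2) in untreated replicate 2, and the highest value among them in another library was 5.07 CPM (DLX2 in doxorubicin replicate 1).

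Secreted ligands, receptors and regulators of signalling made up 14 members. Their median CPM was 25.4 in untreated replicate 2 and 0.565, 0.976 and 0.979 in the others. CCN2 (chr6, minus strand), a matrix protein also known as connective tissue growth factor, had 156 CPM and 13.4, 13.7 and 15.7 CPM. HBEGF, a ligand of the EGF receptor, had 151 CPM and 10.2, 10.9 and 11.3 CPM. CCN2 and HBEGF were thus among the members with clear expression in every library, and in both genes the other 3 libraries lay close together.

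DLL4, a Notch ligand, had 60.5 CPM in untreated replicate 2 and 1.19, 1.43 and 2.07 CPM in the others. GALR2, a receptor of the neuropeptide galanin, had 88.8 CPM and 3.91, 3.38 and 3.26 CPM. RASD1, a small GTPase induced by dexamethasone, had 36.4 CPM and 0.358, 0.787 and 0.943 CPM. RASD1 was lowest in untreated replicate 1, whereas GALR2 was lowest in doxorubicin replicate 2. The other 8 were RGS16, RND1, DACT3, CHRM4, DKKL1, GDF9, SOCS1 and NGFR, from 5.23 CPM (DKKL1) to 29.0 CPM (RGS16) in untreated replicate 2 and at most 1.43 CPM in any other library (RGS16 in doxorubicin replicate 1).

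Genes of hormone, retinoid and lipid metabolism gave 9 members, DIO3 included and with GLUL of glutamine synthesis counted among them. CRABP2, which carries retinoic acid to its nuclear receptor, had 100 CPM in untreated replicate 2 and 3.01, 7.43 and 7.73 CPM in the others. HSD11B2, which inactivates cortisol, had 23.9 CPM and 2.26, 2.01 and 2.18 CPM. SHBG, the binding globulin of sex hormones that the liver secretes, had 21.7 CPM and 1.24, 1.54 and 1.81 CPM. In CRABP2 both doxorubicin libraries were above untreated replicate 1, with 255 and 213 counts against 109. SHBG had 53 and 50 counts after doxorubicin against 45 in untreated replicate 1, and HSD11B2 had 69 and 60 against 82. With differences that small in so few counts, no direction is read for SHBG and HSD11B2. GLUL, which makes glutamine, had 16.1 CPM and 0.579, 1.02 and 0.834 CPM. ACOT1, PLIN5, GLYATL3 and GLTPD2 ranged from 5.30 to 51.4 CPM in untreated replicate 2, with at most 5.10 CPM elsewhere (ACOT1 in untreated replicate 1). The value of ACOT1 is uncertain, since the gene has a near-identical copy beside it.

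Both claudin members form tight junctions and lie next to each other on chromosome 16. CLDN6 had 65.2 CPM in untreated replicate 2 and 0.303, 0.903 and 2.25 CPM in the others, and CLDN9 had 24.0 CPM and 0.827, 1.46 and 1.85 CPM. They are close paralogs on opposite strands, so reads shared between them cannot be told apart here. The 5 members grouped here as immune genes were MYD88, CD14, APOBR, WAS and RAET1L, although APOBR is by name a receptor of apolipoprotein B. MYD88, the adaptor of Toll-like receptors, had 15.4 CPM and 0.165, 0.525 and 0.290 CPM. CD14, the co-receptor for bacterial lipopolysaccharide on monocytes, had 16.7 CPM and 1.13, 0.816 and 0.979 CPM.

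CD14 was also on the list of 10 leukocyte markers. The summed CPM of that list was 1.43 and 17.8 in the untreated libraries and 1.05 and 1.12 in the doxorubicin libraries, and 9 of the 10 genes were below 1 CPM in every library. PTPRC, the pan-leukocyte antigen CD45, had 12 counts in untreated replicate 2 and at most 3 elsewhere, and CD68 had 0 in all. The 8 erythroid markers summed to 3.29 CPM in untreated replicate 2 and to at most 0.689 CPM in the others, with HBB, HBD and HBG1 at 0 in all libraries. The 7 neuron markers summed to 5.73 and 6.20 CPM in untreated cells and to 5.36 and 4.64 CPM after doxorubicin. These markers differed in direction, and untreated replicate 2 was the highest library for 4 of the 7. RBFOX3 had 0.717 and 3.88 CPM in untreated cells and 1.08 and 1.16 CPM after doxorubicin. SNAP25 had 4.44 and 1.42 CPM and then 4.08 and 2.61 CPM. The 7 pluripotent and germ cell markers summed to at most 0.485 CPM. Simple epithelial markers, almost all of it KRT8 and KRT18, summed to 5899 and 4752 CPM in untreated cells and to 3527 and 3025 CPM after doxorubicin. Basal epithelial markers, almost all of it KRT17, were at higher sums in both doxorubicin libraries than in either untreated one. The sums were 945 and 1242 CPM in untreated cells and 1624 and 1357 CPM after doxorubicin. Fibroblast markers summed to 220 and 166 CPM in untreated cells and to 278 and 280 CPM after doxorubicin. Their genes differed in direction. LUM had 65.4 and 49.3 CPM in untreated cells and 135 and 163 CPM after doxorubicin, and DCN was also higher. COL3A1 went the other way, with 70.0 and 69.1 CPM and then 55.8 and 46.0 CPM. COL1A1 had 84.4 and 46.4 CPM in untreated cells and 79.2 and 64.3 CPM after doxorubicin. Endothelial markers summed to 9.79 and 5.13 CPM in untreated cells and to 2.97 and 2.43 CPM after doxorubicin. In bulk RNA, fewer cells of a type and less RNA per cell cannot be told apart. The germ cell and sperm genes on the list were TEX54, ZMYND15, CATSPERG, KLHL10 and DKKL1, from 5.23 to 18.8 CPM in untreated replicate 2 and at most 0.641 CPM elsewhere.

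The other 20 coding members fell outside these groups. RSRP1, a nuclear protein rich in arginine and serine, took the most counts of any member with 12537 in untreated replicate 2, or 434 CPM against 32.0, 35.2 and 45.6 CPM. PHETA1, an adaptor of endosomes, had 8631 counts (299 CPM) and 1080, 858 and 688 counts. HAP1, a partner of huntingtin, had 84.1 CPM and 1.19, 4.17 and 5.77 CPM. RSRP1 and PHETA1 were on the list despite at least 688 counts in every other library. SLC30A3, a zinc transporter of synaptic vesicles, had 74.8 CPM in untreated replicate 2 and 4.47, 4.60 and 5.62 CPM in the others. ARC, an immediate early gene of synapses, had 41.7 CPM and 1.13, 2.54 and 2.97 CPM. CCM2L, a signalling protein of endothelial cells, had 17.2 CPM and 0.110, 0.321 and 0.399 CPM. AP3B2, a neuronal vesicle coat subunit, had 13.4 CPM and 0.358, 0.321 and 0.109 CPM. Across the remaining 13 the value in untreated replicate 2 ran from 5.99 CPM (VMO1) to 57.0 CPM (MEX3B), with at most 5.98 CPM elsewhere (MEX3B in doxorubicin replicate 2).

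Among the 24 lncRNA members, 14 had an antisense name ending in -AS1, 4 were divergent transcripts by name (-DT), 4 were intergenic by name (LINC), and the last were DINOL and SCAANT1. Their median span was 2535 bases against 10595 for the other eligible lncRNAs, and 8 of 24 (33.3%) had a single exon against 16.7%. A divergent start within 1000 bases of a coding gene on the opposite strand was annotated for 14 of the 24 (58.3%) against 39.1%. LINC00910 had 162 CPM in untreated replicate 2 and 8.79, 11.4 and 15.7 CPM in the others. LINC00863 had 74.2 CPM and 5.79, 6.53 and 5.08 CPM, and RALY-AS1 had 46.8 CPM and 1.13, 1.54 and 1.99 CPM. These 3 lncRNAs were detected in every library. OXCT1-AS1, FUT8-AS1 and ACOXL-AS1, the lncRNAs with the highest ratios, had 19.5, 12.6 and 8.52 CPM in untreated replicate 2 and at most 0.399 CPM elsewhere.

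The coding genes beside these lncRNAs were set against them by the same ratio. For 16 lncRNA members a coding gene on the opposite strand started within 1000 bases, and the ratio of those coding genes had a median of 0.623 and a range from 0.0595 to 2.22, against a median of 11.7 for the lncRNAs themselves. Untreated replicate 2 was the highest library for 4 of the 16 coding genes, beside 4106 of the 10587 eligible genes of every class. Nothing is read from that count in so few genes. Of the 16, 1 reached a ratio of 2, the zinc finger gene ZBTB21 beside ZNF295-AS1. On the log2 scale the median of the 16 was -0.71, against -0.39 for all eligible coding genes, of which 9.04% reached a ratio of 2. These sets were chosen differently, since only eligible genes had to reach 5 CPM in untreated replicate 2. HDAC4 and CEP83 were below that minimum, with 3.08 and 3.29 CPM there. DINOL, an lncRNA known as a p53-induced RNA, starts 155 bases from the start of the canonical transcript of CDKN1A, which encodes the cell cycle inhibitor p21. DINOL had 2 and 281 counts in untreated cells and 11 and 6 after doxorubicin, whereas CDKN1A had 380 and 866 CPM in untreated cells and 1003 and 880 CPM after doxorubicin. HDAC4-AS1 gave the widest difference in this comparison. HDAC4-AS1 had 0.414 and 12.0 CPM in untreated cells and 1.11 and 0.762 CPM after doxorubicin, while HDAC4, a histone deacetylase, had 51.7 and 3.08 CPM in untreated cells and 40.5 and 33.2 CPM after doxorubicin. FUT8, the fucosyltransferase gene beside FUT8-AS1, had 14.8 and 9.18 CPM in untreated cells and 17.1 and 18.5 CPM after doxorubicin. OXCT1-AS1 overlapped an exon of OXCT1, and the use of strand in counting is not given in the sources used here, so reads of overlapping genes on opposite strands cannot be told apart.

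**Figure D4:**
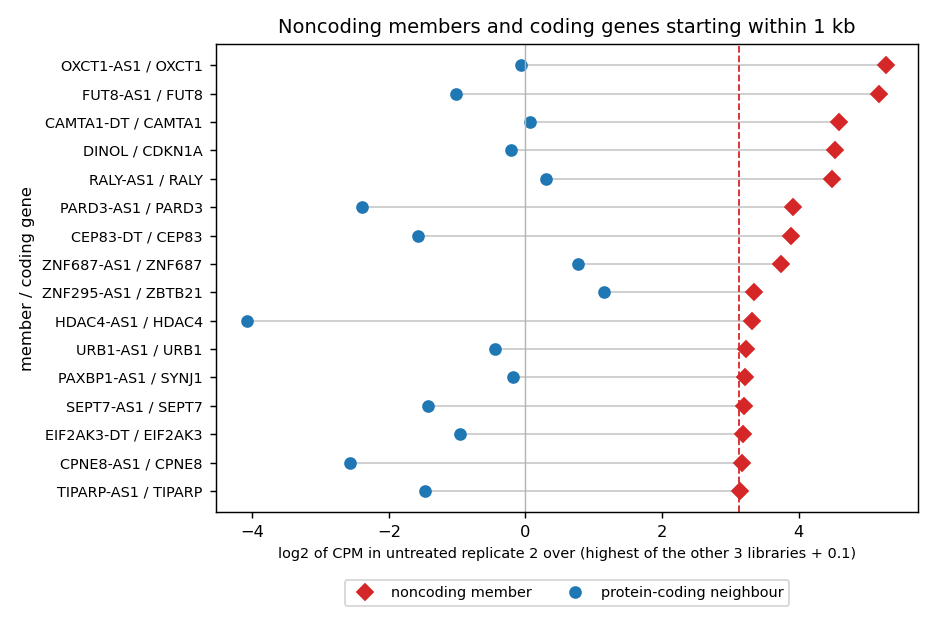
Each row joins a noncoding member (red diamond) to the coding gene starting within 1 kb on the opposite strand (blue circle), and the horizontal axis is the log2 ranking ratio. All 16 diamonds lie right of the dashed list edge by selection, while the circles run from -4.07 to 1.15.

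The 5 pseudogene members were TMPOP2, DBIL5P, HTR7P1, TPI1P2 and RPLP1P6, with 12.7 to 18.5 CPM in untreated replicate 2 and at most 1.63 CPM elsewhere (RPLP1P6 in doxorubicin replicate 1). Apart from DBIL5P, a unitary pseudogene, these are processed copies that share sequence with their parent genes, and their values are uncertain for that reason. The 99 clone-named members had a median of 10.4 CPM in untreated replicate 2 and of 0.358, 0.437 and 0.471 CPM in the others. AC107959.2 had the highest ratio among them, with 443 counts in untreated replicate 2 and 1, 4 and 3 in the others. AP001527.2 had 249 CPM and 9.07, 11.6 and 15.0 CPM, and AC087741.3 had 160 CPM and 5.13, 6.09 and 6.24 CPM. AC015912.3 and AC025181.2 had 108 and 102 CPM in untreated replicate 2 and at most 5.84 CPM elsewhere. Clone-named members thus ranged from a few counts to clear expression outside untreated replicate 2.

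In the order of the counts, which follows the chromosomes, 6 pairs of members stood next to each other. The pairs included CLDN9 with CLDN6, AC087741.3 with AC087741.2, and VMO1, AC233723.2 and GLTPD2 in a row. RSRP1 stood next to the clone-named AL031432.5, which had 6.16 CPM in untreated replicate 2 and 0.193, 0.437 and 0.580 CPM in the others. Apart from such pairs, 134 eligible genes on either side of a member had a median ratio of 0.870 with 11.9% at 2 or more, against 0.790 and 11.0% among the other eligible genes. One member stood beside a histone gene, and the 45 HIST genes past the same minimum, which the rule left out, had a median ratio of 8.93.

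Lists of gene families and pathways place the members among their relatives. The share to hold beside each list is that of all eligible genes, of which 200 of 10587 were members. Of 39 eligible immediate early genes, 5 were members (FOSB, SNAI1, ARC, CCN2 and SOCS1) and the median ratio of the list was 1.35. A further 5 had a ratio of 4 or more. EGR1 had 90.6 CPM in untreated replicate 2 and 7.64, 8.16 and 12.7 CPM in the others, and FOS had 81.6 CPM and 7.39, 9.50 and 11.7 CPM. Other genes of the list went the opposite way. MYC had 94.0 CPM in untreated replicate 2 and 385, 337 and 345 CPM in the others, and ID3, an inhibitor of differentiation factors, had 64.1 CPM and 339, 369 and 266 CPM. Untreated replicate 2 was the highest library for 26 of the 39, a ratio of at least 2 was reached by 17, and 6 were at 0.5 or lower.

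None of 28 eligible canonical p53 targets was a member, and their median ratio was 1.21, with BTG2 at 4.63. None of 21 genes of S phase and DNA replication was a member, with a median ratio of 1.33. Nothing is read from either absence, since members were 200 of the 10587 eligible genes and both lists are short. The family lists went by the letters of the symbol, so they also took in unrelated genes and missed relatives with other names. Of 98 symbols beginning like those of homeobox and developmental factors, 8 were members, and the median was 1.67. Of these 8, GATA6-AS1 and PAXBP1-AS1 are antisense RNAs, whereas the homeobox members PITX3, GBX2 and EN2 were not in the list. Symbols of helix-loop-helix and HES factors gave ATOH7 among 13 with a median ratio of 3.06, and missed NEUROD2. Claudins gave 2 members of 8 with a median ratio of 1.05, and CLDN12 was at 0.176. Zinc finger symbols gave 3 members of 299 with a median of 1.12, which were ZNF425 and the antisense RNAs ZNF687-AS1 and ZNF295-AS1. Antisense RNAs gave 14 of 139, intergenic lncRNAs 5 of 53 and solute carriers 1 of 177, with medians of 2.16, 1.78 and 0.76. Symbols of G protein-coupled receptors gave ADGRF3 and the pseudogene HTR7P1 among 35 with a median of 0.78, and missed GALR2 and CHRM4. LINC00634 is counted with the intergenic lncRNAs by its symbol, although its current entry is protein-coding.

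The other lists were short and held no member, and nothing is read from that at the overall share of 200 in 10587. These were Kruppel-like factors, olfactory receptors, protocadherins, potassium channels, chemokines and interleukins, keratins, RNAs of the mitochondrial genome, microRNA genes and hosts, RNAs without a poly(A) tail, and replication-independent histones. Their median ratios lay between 0.56 and 1.51 except for olfactory receptors, where the single eligible gene was at 8.28. Among RNAs without a poly(A) tail, 7 were eligible and SNORD3B-1 had the highest ratio of 7.68, with 9.45 CPM in untreated replicate 2 and at most 1.13 CPM in the others.

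**Figure D5:**
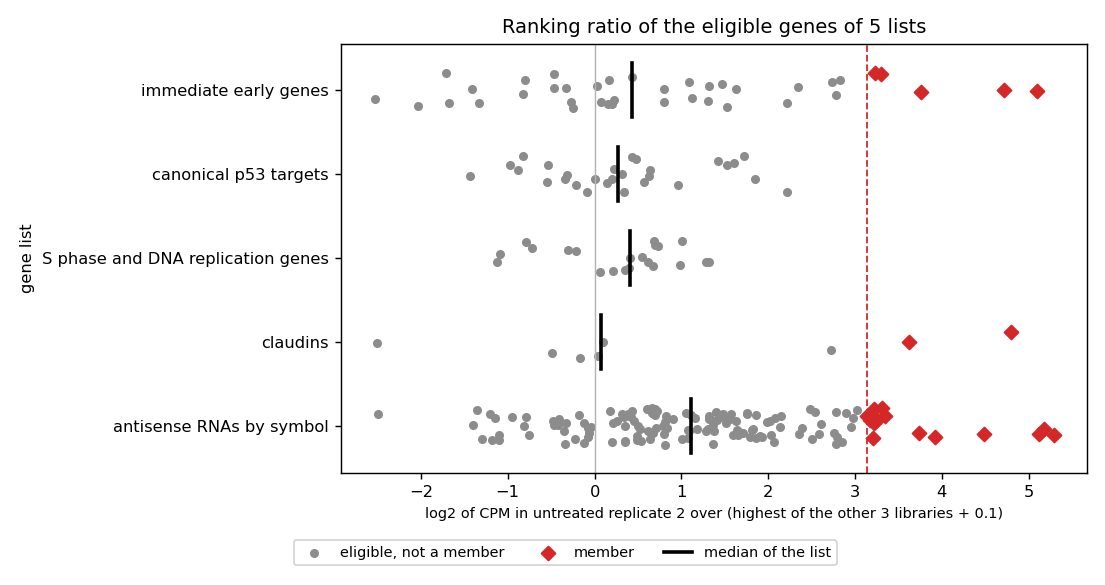
The log2 ranking ratio of each eligible gene is plotted for 5 lists, with members as red diamonds, other genes as grey points, medians as black bars and the list edge as a dashed line. Immediate early genes run from -2.52 to 5.10, while p53 targets end at 2.21 and S phase genes at 1.32.

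The study set doxorubicin-treated against untreated cells to find mRNAs that change with p53 activation, and the quasi-likelihood test of edgeR was fitted here across all genes. Of the 200 members, 166 passed the filter on low counts, and 0 were called (Benjamini-Hochberg adjusted p under 0.05 and a change of 1 or more on the log2 scale in either direction), where 0 of all 17479 genes tested (0%) were called. At an unadjusted p under 0.05 there were 43 members in this edgeR test, against 4.39% of all genes tested. By DESeq2, 26 of the 166 were called, all lower after doxorubicin, where 0.509% of all genes were called in either direction. Nothing is read from these counts, because the same libraries chose the members. The median log2 fold change of the 166 was -3.31 (range -5.75 to -2.53), against 0.01 over all genes tested. For DIO3 the log2 fold change was -5.75 with a standard error of 1.99 (adjusted p = 0.773 by edgeR with Benjamini-Hochberg adjustment), and the smallest adjusted p over all genes was the same 0.773. With the replicate number as a block, 0 members were called by edgeR, where 0.114% of all genes were called. In that fit 133 members had an unadjusted p under 0.05, against 6.14% of all genes tested. Nothing is read from that count either.

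The members were then compared without untreated replicate 2. The rule also used the highest value among the remaining libraries, so members were low in all of them by choice. The fit is therefore not independent of the selection, and its values are given as a description. The fit of both doxorubicin libraries against untreated replicate 1 tested 169 members, and their median log2 fold change was 0.29 with 108 above 0 and 61 below 0, against a median of 0.05 over all genes tested. There, 7 members (4.14%) were called, all higher after doxorubicin, where 4.44% of all 18356 genes tested were called. The share among the members was close to that background. The lone untreated library was assumed to vary like the doxorubicin libraries in this fit. The 7 genes were FOSB, CLDN6, RND1, HAP1, CRABP2, AC023157.3 and AC241585.2, named after their values were seen.

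RND1, a small GTPase that loosens the actin cytoskeleton, rose from 0.110 CPM in untreated replicate 1 to 1.08 and 1.02 CPM (log2 fold change 3.07, standard error 0.84, adjusted p = 0.0088 by edgeR). HAP1 rose from 1.19 to 4.17 and 5.77 CPM (log2 fold change 1.91, standard error 0.43, adjusted p = 0.000586 by edgeR). CRABP2 rose from 3.01 to 7.43 and 7.73 CPM (log2 fold change 1.19, standard error 0.35, adjusted p = 0.0189 by edgeR). In the same fit FOSB rose by 1.21 on the log2 scale (standard error 0.38, adjusted p = 0.0309 by edgeR) and CLDN6 by 2.17 (standard error 0.64, adjusted p = 0.0177 by edgeR). In all 5 genes the 2 doxorubicin libraries were above untreated replicate 1 and far below untreated replicate 2. All 7 were also called with RLE factors and with library size alone. By DESeq2, 2 members were called, HAP1 (adjusted p = 0.0150) and AC023157.3 (adjusted p = 0.0364), and the other 5 had an adjusted p between 0.0928 (CRABP2) and 0.298 (AC241585.2). Over all 200 members, both doxorubicin libraries were above untreated replicate 1 in 112 (56%) and both were below in 30 (15%), against 47.9% and 29.8% of the other eligible genes.

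Without untreated replicate 1 all 200 members were tested and called as lower after doxorubicin, beside 4548 genes called as lower and 4149 called as higher among all genes. In that fit 23.2% of the 19606 genes tested were called as lower. Nothing is read from the count of members, since the rule had set untreated replicate 2 far above both doxorubicin libraries.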

How the data were processed

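The deposited data were counts per gene for 2 untreated and 2 doxorubicin-treated libraries, 1 column per library. Per the authors' methods and notes, reads passed FastQC and Cutadapt, HISAT2 aligned them to hg38 and HTSeq assigned them to genes, and the deposited counts were not normalized. Per the file headers, genes came from GENCODE release 31. The use of strand is not given in the sources used here. Groups were taken from the sample titles and the treatment protocol. The titles name no drug and read nop53 for the libraries taken as untreated and p53 for those taken as doxorubicin-treated. The treatment tag of the treated samples reads p53-miRNA, which differs from their mRNA titles, and the titles and protocol were followed.

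CPM was computed on the total of each column. Gene type, span, exons, transcript length and GC content of the canonical transcript came from GENCODE release 44 on GRCh38, matched by symbol or by a unique older symbol. Clone-named genes were not matched, so feature checks over all 200 members (50.5% matched) were void and were made over the other 101. Promoters came from RefSeq. The members, gene lists and functional groups were chosen with earlier results of these data known.

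Differential expression was fitted on counts in edgeR 4.0.16 (glmQLFit, glmQLFTest, TMM factors, filterByExpr), and genes were called at an adjusted p (Benjamini-Hochberg over all genes tested) under 0.05 with a change of 1 or more on the log2 scale in either direction. DESeq2 1.42.0 was the alternative tool, with R 4.3.3, and the fits were tested on simulated data. Other alternatives were RLE factors, library size alone, no filter, the replicate number as a block, leaving out each library, and other constants, minimums, sizes and scalings of the ranking. Named genes were mainly drawn from the 20 members with the highest ratio and the 20 with the highest CPM in untreated replicate 2. Others came from the top 3 of each gene type, the gene lists, the 3 shortest and 3 longest spans, and the end of the list. Several clone-named genes of these sets, such as AL591479.1 and AC012306.2, were left out of the description, and AP3B2 was named outside them. Intervals and the limit of 3 counts cover counting error only.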

Additional observations from a re-analysis of the deposited data

How the results depend on the processing

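The number of genes called between doxorubicin-treated and untreated cells was 0 by edgeR and stayed at 0 with RLE factors, with library size alone and with no filter, with 798, 800 and 1543 genes at an unadjusted p under 0.05. DESeq2 called 89 genes, 46 higher and 43 lower. With the replicate block, 20 genes were called, 16 higher and 4 lower, and none was a member. The replicate numbers are shared between the groups, and whether same-numbered libraries were paired is not known. The deviations of same-numbered libraries had a correlation of 0.0367. With 2 libraries per group the deviations mirror each other, so this single value cannot settle it. Leaving out 1 library at a time gave between 0 and 8697 genes, namely 8697 without untreated replicate 1, 815 without untreated replicate 2 and 0 without either doxorubicin library. The median log2 fold change of the members tested was between -4.36 (without untreated replicate 1) and 0.29 (without untreated replicate 2), and between -2.36 and -3.42 under the replicate block, DESeq2, the other scalings and no filter. Without untreated replicate 2, the members called were 7 with TMM, 7 with RLE factors, 8 with library size alone and 2 by DESeq2, settings added after the data were seen.

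The list itself depended on its rule. Of the 200 members, 120 remained with a minimum of 10 CPM in untreated replicate 2, 131 with a minimum of 2 CPM, 147 with an added constant of 1, 189 on TMM-scaled libraries and 100 in the top 100. Leaving 1 library out of the maximum kept between 181 and 188. The share of protein-coding genes, the share with a single exon and the median transcript length of annotated members moved by less than their 95% intervals under all 9 alternatives, with ranges of 70.1% to 74.8%, 19.4% to 26.8% and 1958 to 2593 bases. For members under 1 CPM in the other 3 libraries, depth limits the order of those libraries, since 3 counts are worth 0.0827 to 0.109 CPM.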
